A study of Homo sapiens with 12 samples.

Results

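The genes described here are 35 genes of sterol and fatty acid synthesis, taken by symbol from a table of 56634 gene rows. All 35 symbols were found. They fall into 18 enzymes of sterol synthesis, 9 genes of sterol sensing, transport and uptake, and 8 genes of fatty acid synthesis and desaturation. ABCA1 did not pass the filter on low counts, so 34 were tested. RNA was sequenced from HCT116, an established human colorectal carcinoma cell line. There were 4 groups of 3 biological replicates. TNF plus Senexin B cells received 1 µM Senexin B for 1 h and then 10 ng/mL TNF for another 2 h. TNF cells received DMSO for 1 h and then the same TNF dose for 2 h. Senexin B cells received 1 µM of the inhibitor for 3 h. DMSO control cells received 0.1% DMSO, the solvent, for 3 h. Senexin B inhibits CDK8 and CDK19, the paired kinases of the Mediator complex that bridges transcription factors and RNA polymerase II, while TNF is an inflammatory cytokine that acts in large part through NF-kB. The groups ask what the inhibitor does to transcripts with and without the cytokine, all in 1 cell line and at 1 dose of each agent.

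Sterol synthesis starts from acetyl-CoA, passes through mevalonate and squalene, and ends in cholesterol. Most of its enzymes, and many enzymes of fatty acid synthesis, are transcribed under the SREBP factors, which the genes SREBF1 and SREBF2 encode. The escort protein SCAP carries SREBP precursors out of the endoplasmic reticulum for cleavage when sterols are scarce, and the INSIG proteins hold the complex back when sterols are plentiful. The SREBF2 product is known mainly for the sterol genes and the SREBF1 product mainly for the fatty acid genes. The nuclear SREBPs bind short sterol response elements beside the general factors NF-Y and Sp1. CDK8 is known from work in mouse liver to phosphorylate the nuclear SREBF1 product and to shorten its life.

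Promoter sequence from RefSeq (build GRCh38.p14), 250 bases before to 50 after each transcription start, was found for 31 of the 35 genes, with 42 promoters in all. FDFT1, SQLE, ACAT2 and FASN had no entry. The NF-Y box CCAAT, searched on both strands, was found in 22 of the 31 genes, against 39.7% of all 27305 genes with a promoter in the table and 34.6% of all 35116 promoters. By role it was found in 13 of 15 sterol enzymes, 4 of 9 sensing and transport genes and 5 of 7 fatty acid genes. The GC box GGGCGG, a motif of Sp1, was found in 30 of 31 genes, against 48.3% of all genes and 45.0% of all promoters. A sterol response element spelled TCACNCCAC was found in 1 of the 31, SREBF2, against 1.39% of all genes and 1.13% of all promoters. An NF-kB motif, a search added after the TNF values had been seen, was found in 6 of the 31 (HMGCS1, INSIG2, SREBF1, SREBF2, MYLIP and ACACA), against 9.16% of all genes and 7.73% of all promoters. The motifs were not masked against each other. No other spelling of the sterol response element was searched, so a promoter without a match is not shown to lack the element. A match is a description of these letters and not a site in use.

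The 7 stretches below come from genes that the results describe, each running 5′ to 3′ on the strand of its gene, with capitals marking the motif matches. MVD, MSMO1, DHCR7 and SCD, which were higher with Senexin B, are shown for their NF-Y boxes, where ATTGG is the box read from the other strand. SREBF2 is shown for the sterol response element. HMGCS1 and INSIG2, which were higher with TNF, are shown for the NF-kB motif close to the start. In HMGCS1 the same 10 bases matched on both strands, and in INSIG2 the capitals cover 2 overlapping matches. HMGCS1, INSIG2 and DHCR7 each have 2 promoters in the table, and the matches shown lie in 1 of them.
MVD, chr16:88663162-88663260, minus strand, bases -169 to -71 from the start: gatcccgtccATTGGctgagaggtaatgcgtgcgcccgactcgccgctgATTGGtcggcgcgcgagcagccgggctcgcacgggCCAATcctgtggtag
MSMO1, chr4:165327474-165327649, plus strand, bases -195 to -20 from the start: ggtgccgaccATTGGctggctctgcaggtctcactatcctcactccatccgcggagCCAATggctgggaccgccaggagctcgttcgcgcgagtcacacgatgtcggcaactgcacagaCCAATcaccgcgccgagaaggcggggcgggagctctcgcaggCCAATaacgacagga
DHCR7, chr11:71448427-71448497, minus strand, bases -104 to -34 from the start: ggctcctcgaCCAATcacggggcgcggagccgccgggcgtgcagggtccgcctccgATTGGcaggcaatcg
SCD, chr10:100346994-100347061, plus strand, bases -239 to -172 from the start: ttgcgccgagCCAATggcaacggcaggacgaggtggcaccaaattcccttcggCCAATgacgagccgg
SREBF2, chr22:41832962-41832990, plus strand, bases -143 to -115 from the start: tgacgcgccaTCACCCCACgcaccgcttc
HMGCS1, chr5:43313166-43313195, minus strand, bases -14 to 16 from the start: ggggccgggcGGGGGTTCCCtcgtgaggga
INSIG2, chr2:118088539-118088569, plus strand, bases -11 to 20 from the start: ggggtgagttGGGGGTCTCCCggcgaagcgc

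**Figure D1:**
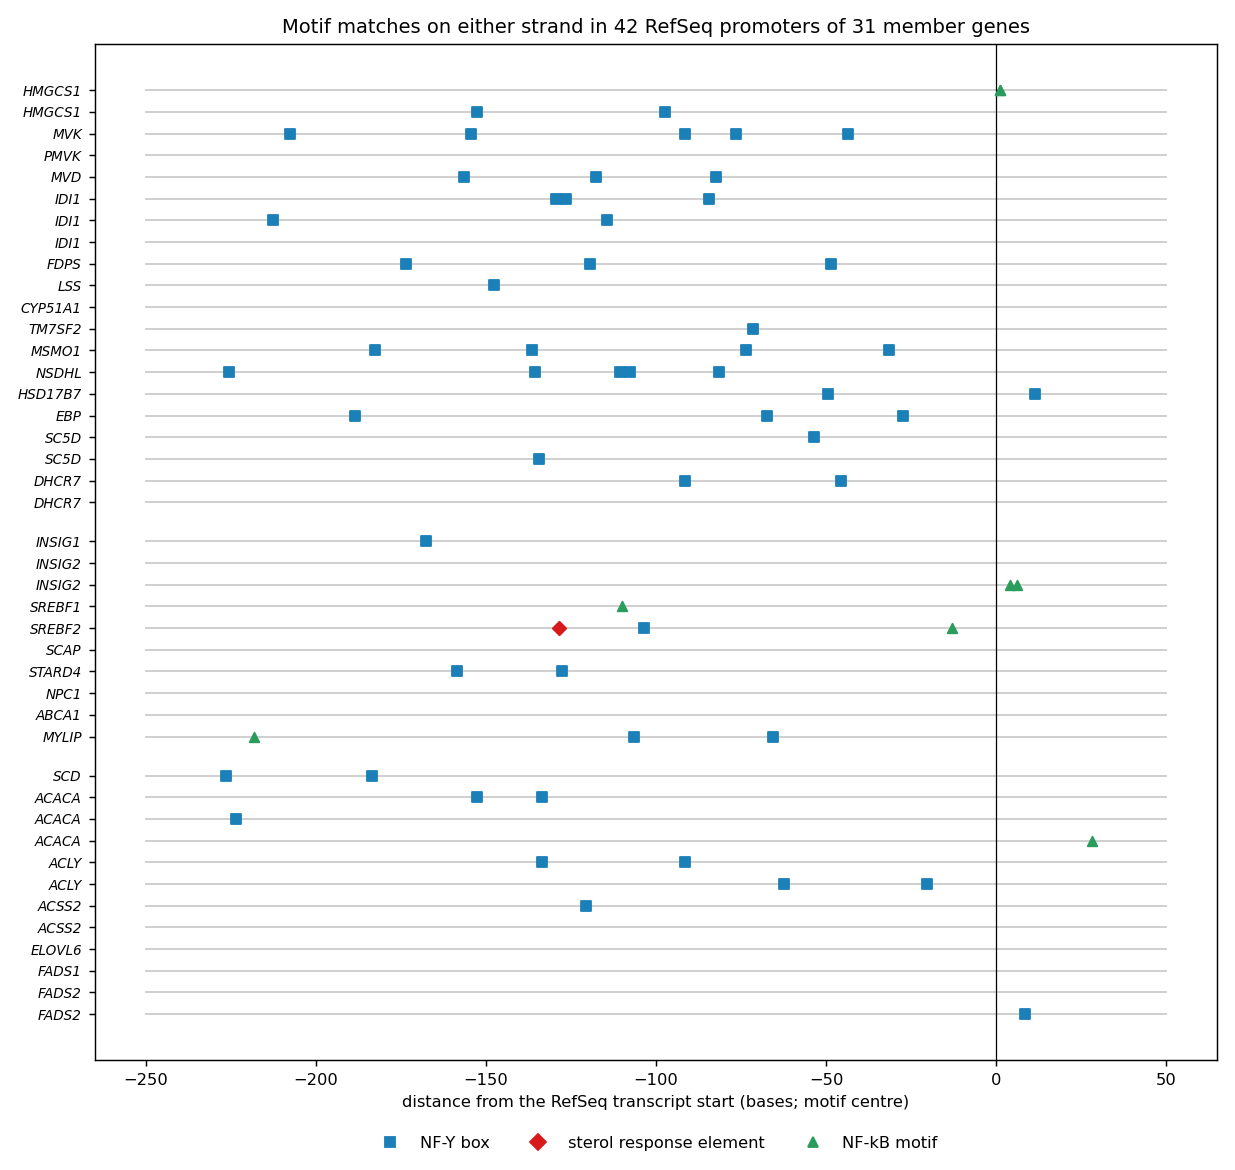
Positions of NF-Y boxes, the sterol response element and NF-kB motifs in the 42 promoters of the 31 genes with an entry, 1 line per promoter, as the distance of the motif centre from the transcription start in bases, with the genes grouped by role. NF-Y boxes were found in 13 of 15 sterol enzymes. The sterol response element was searched in the spelling TCACNCCAC only, which was found in SREBF2 alone.

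The libraries held 5835226 to 9281176 counts. NFKBIA, an NF-kB target that encodes its inhibitor, stood at 251.5 to 297.8 CPM (counts scaled to library size) in the 6 libraries with TNF and at 21.7 to 25.5 CPM in the other 6. The 5 epithelial markers EPCAM, CDH1, KRT8, KRT18 and KRT19 summed to 3872 to 4686 CPM and none was at 0. Of the 5 fibroblast markers DCN and LUM were at 0 in every library and COL1A1 made up nearly all of a sum of 7.46 to 11.0 CPM, while no blood cell marker exceeded 2 counts. TNF replicate 1, the shallowest library, and DMSO control replicate 1 stood apart from their groups. Over genes, the chi-square of counts per degree of freedom was 2.88 and 2.58 between TNF replicate 1 and the other TNF libraries, 2.77 and 2.92 between DMSO control replicate 1 and the other DMSO control libraries, and 1.23 to 1.78 for every other pair within a group. The deviation of TNF replicate 1 from the other TNF libraries had a Spearman's rho of -0.52 with transcript GC content. The deviations of TNF replicates 2 and 3 had rho of 0.37 and 0.33, that of DMSO control replicate 1 had -0.16, and those of the other 8 libraries lay between -0.11 and 0.24. In bulk RNA, fewer cells with a transcript and less RNA per cell cannot be told apart.

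Per kilobase of merged exons, the fatty acid branch held the most abundant transcripts of the set. SCD, the desaturase that makes oleate and palmitoleate, averaged 363 ± 1.85 CPM per kb in TNF plus Senexin B cells, 318 ± 5.41 in TNF cells, 365 ± 5.39 in Senexin B cells and 326 ± 4.18 in DMSO control cells (SD, n = 3 each). FASN, which builds palmitate, and ACLY, which makes cytosolic acetyl-CoA from citrate, followed in DMSO control cells at 158 ± 17.1 and 104 ± 0.951 CPM per kb. Next came the sterol enzyme CYP51A1 at 49.7 ± 0.747 CPM per kb in DMSO control cells. The steps between these 4 neighbours exceeded the spread of their replicates. Below them, DHCR7 and FDFT1 stood level at 34.6 ± 2.06 and 34.6 ± 1.39 CPM per kb, and INSIG1, EBP and SREBF2 between 29.6 and 31.7 CPM per kb overlapped within their spread. The lower end of the order was HSD17B7 at 2.63, FADS2 at 1.85 and ABCA1 at 0.0959 CPM per kb.

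Senexin B raised a small group of sterol enzymes and the desaturase SCD, by at most 1.30-fold. Against DMSO control, 5 of the 34 tested genes rose and 1 fell, where 1.53% of all 13084 tested genes rose and 1.51% fell at an adjusted p under 0.05. The 6 calls became 3 without DMSO control replicate 1 or Senexin B replicate 2. Calls over all genes went from 398 to 266 and 250 in these 2 settings. In TNF-treated cells 7 rose and 0 fell, against 2.90% and 2.55% of all genes. At an unadjusted p under 0.05 edgeR gave 2 lower there, and DESeq2 called 0 lower. No library is shared between these comparisons. Averaged over them, a mean Senexin B effect, 8 rose and 2 fell, against 5.18% and 4.89% of all genes. The median log2 fold change of the 34 was 0.06 against DMSO control, 0.09 against TNF and 0.07 in the mean effect, where the median of all genes was 0.00 each time. All adjusted p-values given below are from the quasi-likelihood test of edgeR, with Benjamini-Hochberg adjustment over all tested genes, and each log2 fold change is given ± its standard error (SE).

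**Figure D2:**
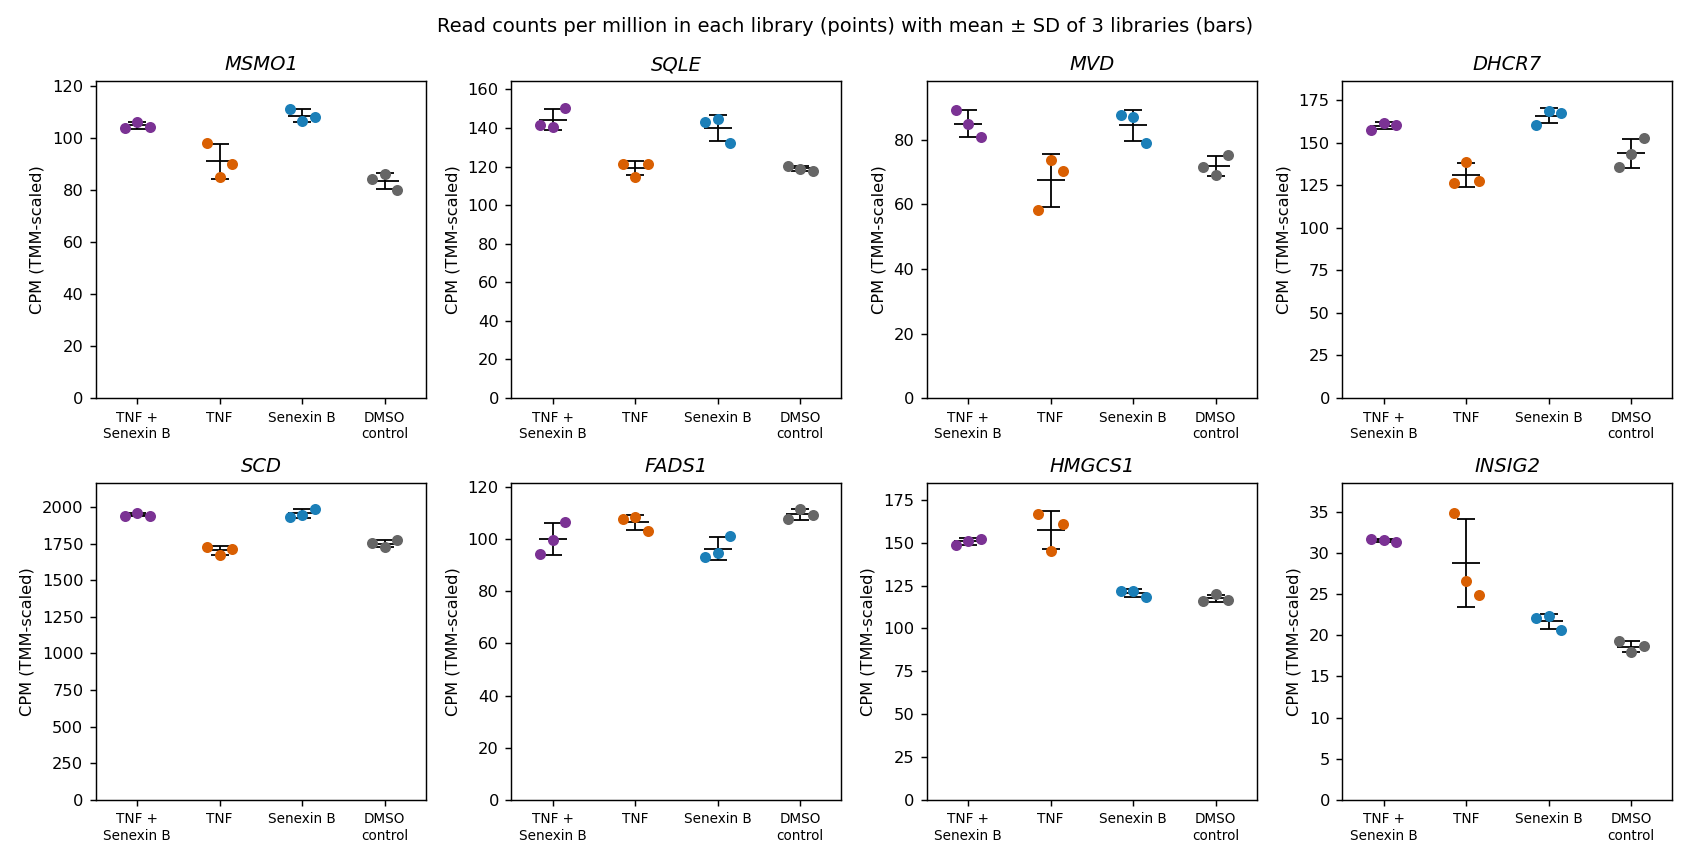
Expression in each of the 12 libraries, in CPM, of members on which the results turn, one point per library with the mean ± SD of 3 libraries as bars, in the group order TNF plus Senexin B, TNF, Senexin B, DMSO control. SQLE, MSMO1, DHCR7, MVD and SCD lie higher in both groups with Senexin B, and HMGCS1 and INSIG2 in both groups with TNF.

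MSMO1, a methylsterol monooxygenase that removes methyl groups from lanosterol products, had the largest change with Senexin B alone. It stood at 111, 107 and 108 CPM in Senexin B cells, against 84.5, 86.2 and 80.1 CPM in DMSO control cells. The groups lay wholly apart, at 0.38 ± 0.05 on the log2 scale (adjusted p = 1.25e-06). With the cytokine present MSMO1 stood at 104, 106 and 104 CPM in TNF plus Senexin B cells, against 98.1, 85.1 and 89.9 CPM in TNF cells. The groups again did not overlap, with TNF replicate 1 the nearest to them, and the change was 0.21 ± 0.05 (adjusted p = 0.0108). That call was lost without TNF replicate 2 (adjusted p = 0.0939) or TNF plus Senexin B replicate 2 (0.0582).

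SQLE encodes squalene epoxidase, which adds oxygen to squalene. It stood at 142, 140.3 and 150.4 CPM in TNF plus Senexin B cells, against 121, 115 and 121 CPM in TNF cells. Without the cytokine it stood at 143, 145 and 132 CPM in Senexin B cells, against 120.5, 119 and 118 CPM in DMSO control cells. Every library with the inhibitor exceeded every library without it. The changes were 0.28 ± 0.05 (adjusted p = 0.000121) and 0.23 ± 0.05 (adjusted p = 0.00174).

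DHCR7, which carries out a last reduction to cholesterol, stood at 158, 162 and 160.5 CPM in TNF plus Senexin B cells, against 127, 139 and 128 CPM in TNF cells. Without the cytokine it stood at 161, 169 and 168 CPM in Senexin B cells, against 136, 144 and 153 CPM in DMSO control cells. The groups did not overlap in either pair. The change was 0.28 ± 0.05 against TNF (adjusted p = 5.89e-05) and 0.20 ± 0.05 against DMSO control (adjusted p = 0.00727). The call against DMSO control was lost without DMSO control replicate 1 (adjusted p = 0.0937) and without Senexin B replicate 2 or 3 (0.0589 each).

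MVD, mevalonate diphosphate decarboxylase, which makes isopentenyl diphosphate, stood at 89.3, 85.0 and 80.8 CPM in TNF plus Senexin B cells, against 58.3, 73.8 and 70.4 CPM in TNF cells. TNF replicate 1 was the lowest of all 12 libraries. In Senexin B cells it stood at 87.6, 87.2 and 79.1 CPM, against 71.7, 69.2 and 75.4 CPM in DMSO control cells, again with no overlap. The changes were 0.32 ± 0.06 (adjusted p = 0.000698) and 0.23 ± 0.06 (adjusted p = 0.0257). With offsets corrected for GC content the change against TNF was 0.22 (adjusted p = 0.00354). Against DMSO control the call was lost without DMSO control replicate 1 (0.0803) or 2 (0.135), without Senexin B replicate 1 (0.166) or 2 (0.144), and in DESeq2 (0.0782).

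MVK, mevalonate kinase, rose only in the mean effect, at 0.22 ± 0.07 (adjusted p = 0.0265). It stood at 25.3, 27.0 and 24.2 CPM in TNF plus Senexin B cells, against 19.4, 24.5 and 22.6 CPM in TNF cells. With the inhibitor alone it stood at 29.1, 31.5 and 31.9 CPM in Senexin B cells, against 24.8, 22.1 and 30.1 CPM in DMSO control cells. The groups overlapped in both pairs. Leaving out any of 6 libraries ended the call (adjusted p from 0.0546 to 0.122), as did DESeq2 (0.0707) and GC-corrected offsets (0.0504).

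The other 13 sterol enzymes were not called in any comparison between inhibitor and no inhibitor. They were HMGCS1, PMVK, IDI1, FDPS, FDFT1, LSS, CYP51A1, TM7SF2, NSDHL, HSD17B7, EBP, SC5D and ACAT2, and span the route from its first steps to the late sterol intermediates. Their log2 changes in the mean effect ran from -0.06 to 0.12, with a smallest adjusted p of 0.292. FDPS, farnesyl diphosphate synthase, stood at 113, 111 and 107 CPM in TNF plus Senexin B cells, against 104, 106 and 111 CPM in TNF cells, and the groups overlapped. CYP51A1, the lanosterol demethylase, stood at 177, 196 and 193 CPM in TNF plus Senexin B cells, against 195, 184 and 179 CPM in TNF cells, and overlapped as well. The kit does not mark the strand, so reads of ACAT2 cannot be told from those of SOD2 and TCP1, which share 26.5% and 9.23% of its exon bases on the other strand. AC000120.2, annotated as protein-coding on the same strand, shares 79.4% of the exon bases of CYP51A1. RUSC1-AS1 on the other strand shares 18.6% of those of FDPS. Reads from these shared bases could come from either gene of each pair. Named pseudogene copies of FDPS and CYP51A1 in the table held at most 4 counts a library.

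Among the genes of sterol sensing and transport, SREBF1 and NPC1 were the ones called higher with Senexin B, and MYLIP was the one called lower. SREBF1 stood at 220.0, 213 and 210.0 CPM in TNF plus Senexin B cells, against 154, 198 and 189.8 CPM in TNF cells. The groups did not overlap, and TNF replicate 1 was the lowest of all 12 libraries. The change was 0.23 ± 0.06 (adjusted p = 0.0139). It was 0.14 without TNF replicate 1 (adjusted p = 0.0584) and 0.14 with GC-corrected offsets (adjusted p = 0.0151), and the call was also lost without TNF plus Senexin B replicate 1 (0.0795). In Senexin B cells SREBF1 stood at 215, 217 and 215 CPM, against 199, 199 and 219.8 CPM in DMSO control cells, which overlapped. That difference was 0.07 ± 0.06 (adjusted p = 0.647).

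NPC1 exports cholesterol from lysosomes. It stood at 80.5, 83.5 and 82.6 CPM in TNF plus Senexin B cells, against 67.3, 76.5 and 68.9 CPM in TNF cells. The groups did not overlap and differed by 0.21 ± 0.06 (adjusted p = 0.0218). The call was lost without TNF replicate 1 (adjusted p = 0.0899) or 3 (0.104), without TNF plus Senexin B replicate 2 (0.0890) or 3 (0.0730), and in DESeq2 (0.0534). In the mean effect NPC1 rose by 0.17 ± 0.04 (adjusted p = 0.00275), a call that no alternative ended.

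MYLIP encodes a ubiquitin ligase that sends lipoprotein receptors to degradation. It stood at 6.63, 6.47 and 7.03 CPM in TNF plus Senexin B cells, against 8.15, 8.59 and 9.04 CPM in TNF cells. In Senexin B cells it stood at 7.03, 7.69 and 8.56 CPM, against 9.3, 9.61 and 9.5 CPM in DMSO control cells. Libraries with the inhibitor were lower in both pairs without overlap, and MYLIP fell by 0.32 ± 0.10 in the mean effect (adjusted p = 0.0343). Leaving out any of 7 libraries ended that call (adjusted p from 0.0526 to 0.0885), as did no filter on low counts (0.0887) and DESeq2 (0.115).

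ABCA1, a cholesterol exporter that like MYLIP is a known target of the LXR sterol receptors, was near the limit of detection. It held 16 counts over the TNF plus Senexin B libraries and 22 over the TNF libraries. There were 15 counts over the Senexin B libraries and 27 over the DMSO control libraries. The remaining sensing and transport genes gave no call with Senexin B. SCAP stood at 81.8, 87.1 and 85.2 CPM in TNF plus Senexin B cells, against 77.2, 76.8 and 77.9 CPM in TNF cells, a difference of 0.13 ± 0.06 with no overlap (adjusted p = 0.188). STARD4, a cytosolic sterol carrier, differed by -0.21 ± 0.07 in the same comparison, also with no overlap (adjusted p = 0.0661). INSIG2 was at 0.19 ± 0.07 in the mean effect (adjusted p = 0.0665) and was called with GC-corrected offsets, at 0.26 (0.00243).

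The factor gene SREBF2 stood at 252, 246 and 245 CPM in TNF plus Senexin B cells, against 226, 242 and 231 CPM in TNF cells, without overlap. Without the cytokine it stood at 229, 232 and 236 CPM in Senexin B cells, against 215, 233 and 224 CPM in DMSO control cells, which overlapped. Its mean effect was 0.07 ± 0.03 (adjusted p = 0.145). SCAP without the cytokine stood at 82.1, 96.2 and 87.9 CPM in Senexin B cells, against 83.8, 82.1 and 84.7 CPM in DMSO control cells, and overlapped. INSIG1, itself a known SREBP target, stood at 121, 115 and 121 CPM in TNF plus Senexin B cells, against 121, 112 and 107 CPM in TNF cells, which overlapped. It stood at 123, 122 and 120.1 CPM in Senexin B cells, against 120.1, 115 and 112 CPM in DMSO control cells, and its mean effect was 0.07 ± 0.04 (adjusted p = 0.209).

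In the fatty acid branch, SCD rose in both comparisons. It stood at 1939, 1957 and 1940.2 CPM in TNF plus Senexin B cells, against 1727, 1670.3 and 1711 CPM in TNF cells. In Senexin B cells it stood at 1934, 1945 and 1989 CPM, against 1751, 1726 and 1771 CPM in DMSO control cells. Every library with the inhibitor exceeded every library without it. The changes were 0.19 ± 0.03 (adjusted p = 7.35e-06) and 0.16 ± 0.03 (adjusted p = 0.00027, 1.12-fold), and no alternative ended either call.

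FADS1, a desaturase of polyunsaturated fatty acids, went the other way. It stood at 93.0, 94.7 and 101 CPM in Senexin B cells, against 108, 112 and 109 CPM in DMSO control cells, with no overlap. It fell by 0.18 ± 0.05 (adjusted p = 0.0383). With the cytokine it stood at 94.1, 99.7 and 106 CPM in TNF plus Senexin B cells, against 108, 109 and 103 CPM in TNF cells, which overlapped, at -0.09 ± 0.05 (adjusted p = 0.395). The mean effect was -0.14 ± 0.04 (adjusted p = 0.0125), and was not called without TNF plus Senexin B replicate 1 (0.0607).

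The call for FADS1 against DMSO control was a narrow one. It was lost without DMSO control replicate 1 (adjusted p = 0.0631), 2 (0.143) or 3 (0.0947), without Senexin B replicate 1 (0.208) or 2 (0.163), and without TNF plus Senexin B replicate 2 (0.0518). Upper-quartile factors (0.0577), no filter on low counts (0.0886) and DESeq2 (0.0821) ended it too. FADS1 and its neighbour FADS2, a desaturase of the same route, share 490 exon bases on opposite strands, whose reads could be assigned to either.

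FASN varied widely between replicates. It stood at 1699, 1404 and 1376 CPM in TNF plus Senexin B cells, against 1122, 1403 and 1357 CPM in TNF cells. With the inhibitor alone it stood at 1417, 1518 and 1407 CPM in Senexin B cells, against 1657, 1358 and 1412 CPM in DMSO control cells. The extremes were TNF plus Senexin B replicate 1 and TNF replicate 1, and the mean effect was 0.09 ± 0.08 (adjusted p = 0.583). ACLY was at 583, 555 and 550.4 CPM in TNF plus Senexin B cells, against 502, 546 and 534 CPM in TNF cells, without overlap at 0.09 ± 0.04 (adjusted p = 0.138). ACACA, which makes malonyl-CoA, ACSS2, which makes acetyl-CoA from acetate, ELOVL6, which elongates palmitate, and FADS2 were not called either. Over the 6 fatty acid genes without a call, the mean effect ran from 0.02 to 0.13, with a smallest adjusted p of 0.0816.

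**Figure D3:**
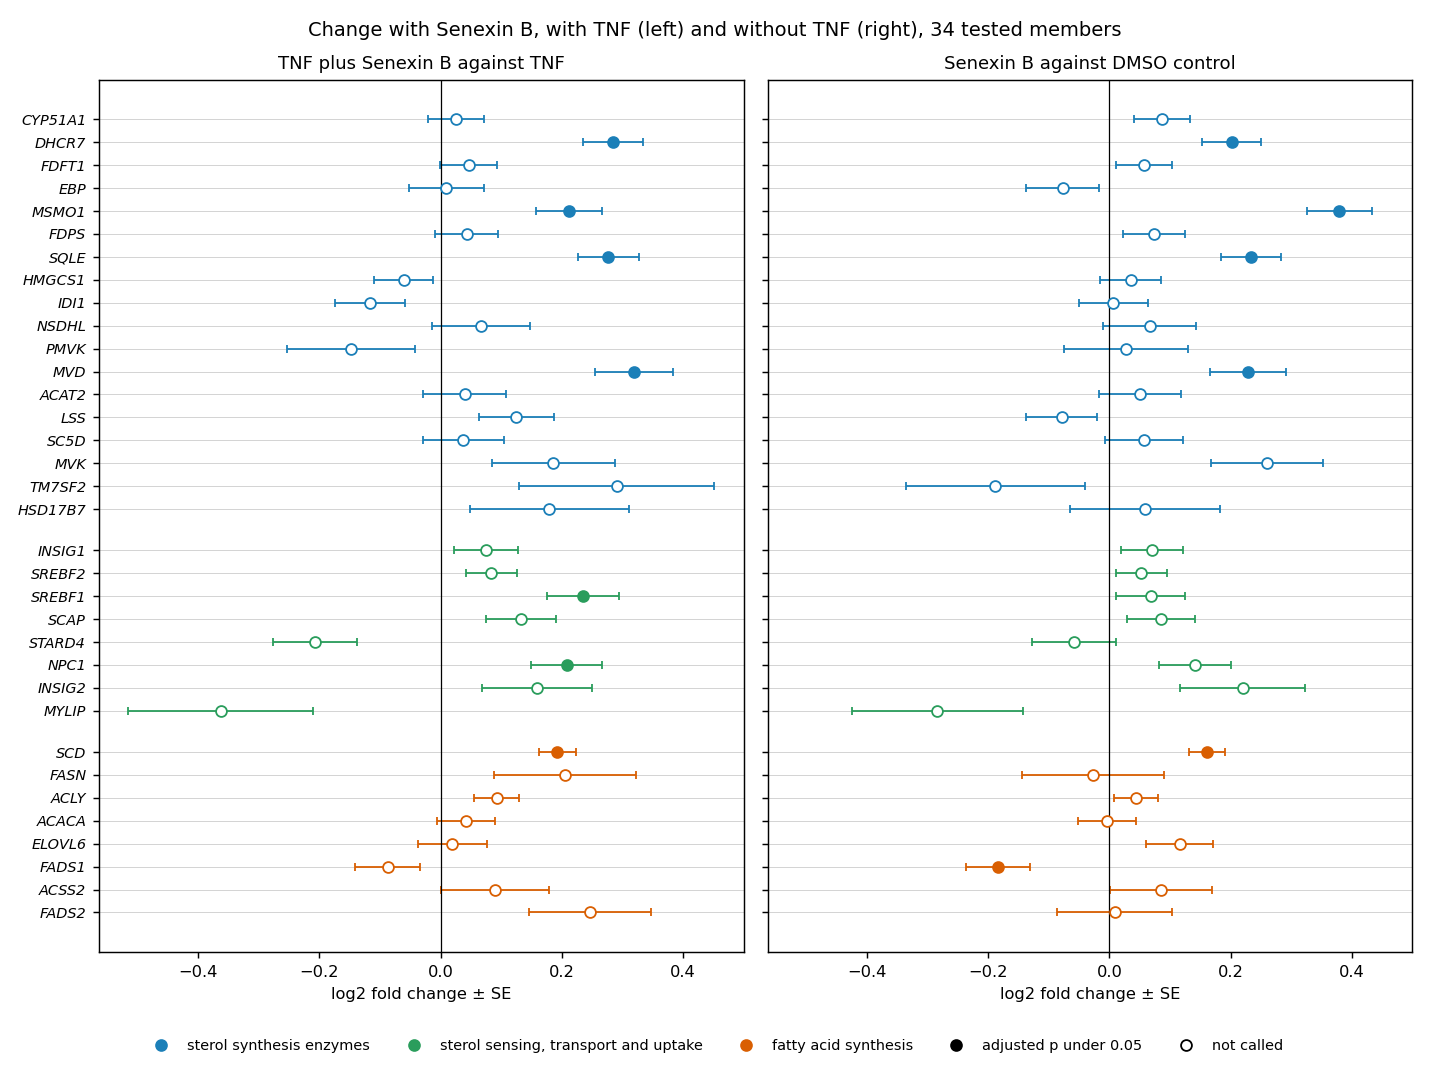
Log2 fold change ± SE for the 34 tested genes with Senexin B, with TNF (left panel) and without TNF (right panel), coloured by role, with filled points at an adjusted p under 0.05. Filled points are 7 higher and 0 lower on the left, and 5 higher and 1 lower on the right.

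Set side by side, the order of the branch medians with Senexin B was not the same in both comparisons. Of the 18 sterol enzymes 4 rose and 0 fell against DMSO control, and of the 8 fatty acid genes 1 rose and 1 fell. Of all genes 1.53% rose and 1.51% fell there. In TNF-treated cells 4 of 18 and 1 of 8 rose, and none fell, against 2.90% and 2.55% of all genes. The median log2 fold change of the sterol enzymes less that of the fatty acid genes was -0.03 against TNF and 0.03 against DMSO control. Against TNF this difference of medians was 0.02 without TNF replicate 1, and against DMSO control it was 0.07 without Senexin B replicate 2. Without Senexin B replicate 1 the medians against DMSO control were level, at 0.047 for the sterol enzymes and 0.048 for the fatty acid genes. The mean effect gave medians of 0.05 for the sterol enzymes and 0.08 for the fatty acid genes. As a level within each library, the mean log2(CPM + 1) of the sterol enzymes less that of the fatty acid genes averaged -1.59 ± 0.01 in TNF plus Senexin B cells and -1.59 ± 0.04 in TNF cells (SD, n = 3 each). It averaged -1.57 ± 0.04 in Senexin B cells and -1.63 ± 0.05 in DMSO control cells. The second pair differed by 0.06, more than the SD of either group, and the groups overlapped in both pairs.

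Summed over its 18 enzymes, the sterol branch held 1561, 1585 and 1582 CPM in TNF plus Senexin B cells, against 1508, 1451 and 1482 CPM in TNF cells. It held 1599, 1575 and 1574 CPM in Senexin B cells, against 1433, 1491 and 1491 CPM in DMSO control cells. The sterol sums were higher with the inhibitor in both pairs, without overlap. They include SQLE, DHCR7, MSMO1 and MVD, which were called higher in both pairs and made up most of the rise of the sums. The other 14 enzymes were called in neither pair. Their log2 fold changes ran from -0.15 to 0.29 against TNF and from -0.19 to 0.26 against DMSO control. In each pair 15 of the 18, the called enzymes among them, had a positive change. The median log2 fold change of the 18 was 0.06. The fatty acid branch held 4704, 4387 and 4345 CPM in TNF plus Senexin B cells, against 3832, 4085 and 4068 CPM in TNF cells, also without overlap. It held 4357, 4511 and 4455 CPM in Senexin B cells, against 4448, 4104 and 4199.5 CPM in DMSO control cells, which overlapped. SCD and FASN make up most of the fatty acid sum and its highest and lowest libraries were those of FASN.

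**Figure D4:**
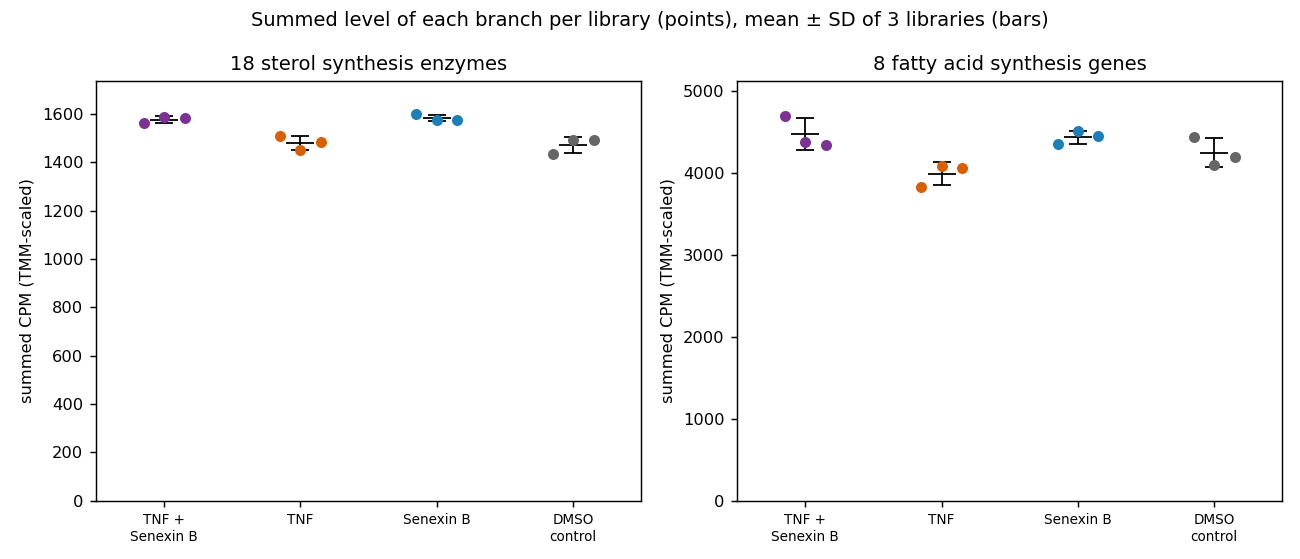
Summed CPM of the 18 sterol enzymes and of the 8 fatty acid genes in each library, one point per library with the mean ± SD of 3. Sterol means are 1576 and 1480 CPM in TNF plus Senexin B and TNF cells and 1583 and 1472 CPM in Senexin B and DMSO control cells. The fatty acid groups overlap in the second pair.

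The direction of the Senexin B effect was shared between the comparisons in 26 of the 34 genes (76.5%), against 64.1% of all tested genes. Of these, 23 were positive both times and 3 negative both times. By role, the count was 12 of 18 sterol enzymes, 8 of 8 sensing and transport genes and 6 of 8 fatty acid genes.

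TNF changed 3 of the genes when given alone: INSIG2 and HMGCS1 rose and LSS fell. Against DMSO control 2 of the 34 rose and 1 fell, where 5.81% of all genes rose and 4.20% fell. In cells with Senexin B 3 rose and 0 fell, against 4.27% and 1.68% of all genes. These counts are of the size of the background. Without DMSO control replicate 1 the 3 calls with TNF alone became 6, and without TNF replicate 2 they became 5. Calls over all genes went from 1309 to 1190 and 1348 in these settings. No fatty acid gene was called in either comparison by edgeR or DESeq2, and 1 was lower in each at an unadjusted p under 0.05. The medians with TNF alone were -0.05 for the sterol enzymes, 0.01 for the sensing and transport genes and -0.04 for the fatty acid genes, against -0.01 for all genes. The sterol median less the fatty acid median was -0.07 with TNF in cells that had the inhibitor, and -0.01 without Senexin B replicate 1.

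INSIG2, which retains the SCAP complex in the endoplasmic reticulum, changed most with TNF. It stood at 31.7, 31.6 and 31.4 CPM in TNF plus Senexin B cells, against 22.1, 22.3 and 20.7 CPM in Senexin B cells. It stood at 34.9, 26.6 and 24.9 CPM in TNF cells, against 19.3, 17.9 and 18.7 CPM in DMSO control cells. All 6 libraries with TNF exceeded all 6 without it, and TNF replicate 1 was the highest. The changes were 0.54 ± 0.09 (adjusted p = 1.36e-05) and 0.60 ± 0.10 (adjusted p = 8.53e-06, 1.52-fold). Its paralog INSIG1 stood at 121, 112 and 107 CPM in TNF cells, against 120.1, 115 and 112 CPM in DMSO control cells, which overlapped (adjusted p = 0.730).

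HMGCS1, the synthase that makes HMG-CoA in the cytosol, stood at 149, 151 and 152 CPM in TNF plus Senexin B cells, against 122, 122 and 118 CPM in Senexin B cells. It stood at 167, 145 and 161 CPM in TNF cells, against 116, 120.1 and 117 CPM in DMSO control cells. Again all libraries with TNF exceeded all without it. The changes were 0.32 ± 0.05 (adjusted p = 1.24e-06) and 0.42 ± 0.05 (adjusted p = 2.21e-09, 1.34-fold). An antisense gene shares 15% of the HMGCS1 exon bases, and its reads cannot be told apart without strand. The promoters of HMGCS1 and INSIG2 hold the NF-kB motif matches printed above. SREBF1, SREBF2, MYLIP and ACACA, which were not called with TNF, also have promoters with an NF-kB motif match, not printed here.

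LSS, lanosterol synthase, was lower with TNF alone. It stood at 64.0, 63.5 and 71.5 CPM in TNF cells, against 73.6, 81.3 and 84.0 CPM in DMSO control cells, with no overlap, and fell by 0.26 ± 0.06 (adjusted p = 0.00192). With the inhibitor it stood at 75.1, 70.8 and 71.7 CPM in TNF plus Senexin B cells, against 77.9, 73.2 and 75.6 CPM in Senexin B cells, which overlapped. NPC1 rose in that comparison, at 80.5, 83.5 and 82.6 CPM in TNF plus Senexin B cells, against 69.6, 75.3 and 71.8 CPM in Senexin B cells. The groups did not overlap, at 0.19 ± 0.06 (adjusted p = 0.0336). The NPC1 call was lost without any Senexin B replicate but the second (0.185 without replicate 1 and 0.114 without replicate 3) and without any TNF plus Senexin B replicate (0.0587, 0.141 and 0.106). It was also lost with upper-quartile factors (0.0751), no filter on low counts (0.0631) and DESeq2 (0.119).

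Changes in several comparisons moved with GC content. Across genes, which are not independent replicates, the log2 fold change with TNF alone had a Spearman's rho with transcript GC content of -0.41 over all genes and -0.62 over the 34. For TNF in cells with the inhibitor rho was -0.18 over all genes and 0.02 over the 34. For Senexin B it was 0.37 and 0.48 in TNF-treated cells, and 0.09 and -0.11 against DMSO control. The interaction had 0.29 and 0.64. With GC-corrected offsets the changes were 0.35 for HMGCS1 (adjusted p = 3.89e-10), 0.52 for INSIG2 (1.58e-05) and -0.19 for LSS (0.0186) with TNF alone, so all 3 calls held. In TNF-treated cells all 7 calls with Senexin B held as well, SREBF1 at 0.14 (0.0151) having the smallest change. The correction also added calls among the members. It gave 3 higher and 1 lower with TNF alone, and 8 higher and 0 lower with Senexin B in TNF-treated cells. With TNF in cells that had the inhibitor it gave 4 higher and 0 lower. Over all genes it gave 1052, 616 and 884 calls in these comparisons, against 1309, 713 and 779 without it. SREBF1, at -0.18 ± 0.06 with TNF alone (adjusted p = 0.0517), was at -0.05 with GC-corrected offsets (0.527). DHCR7, at -0.13 ± 0.05 (0.0792), was at -0.06 (0.526).

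**Figure D5:**
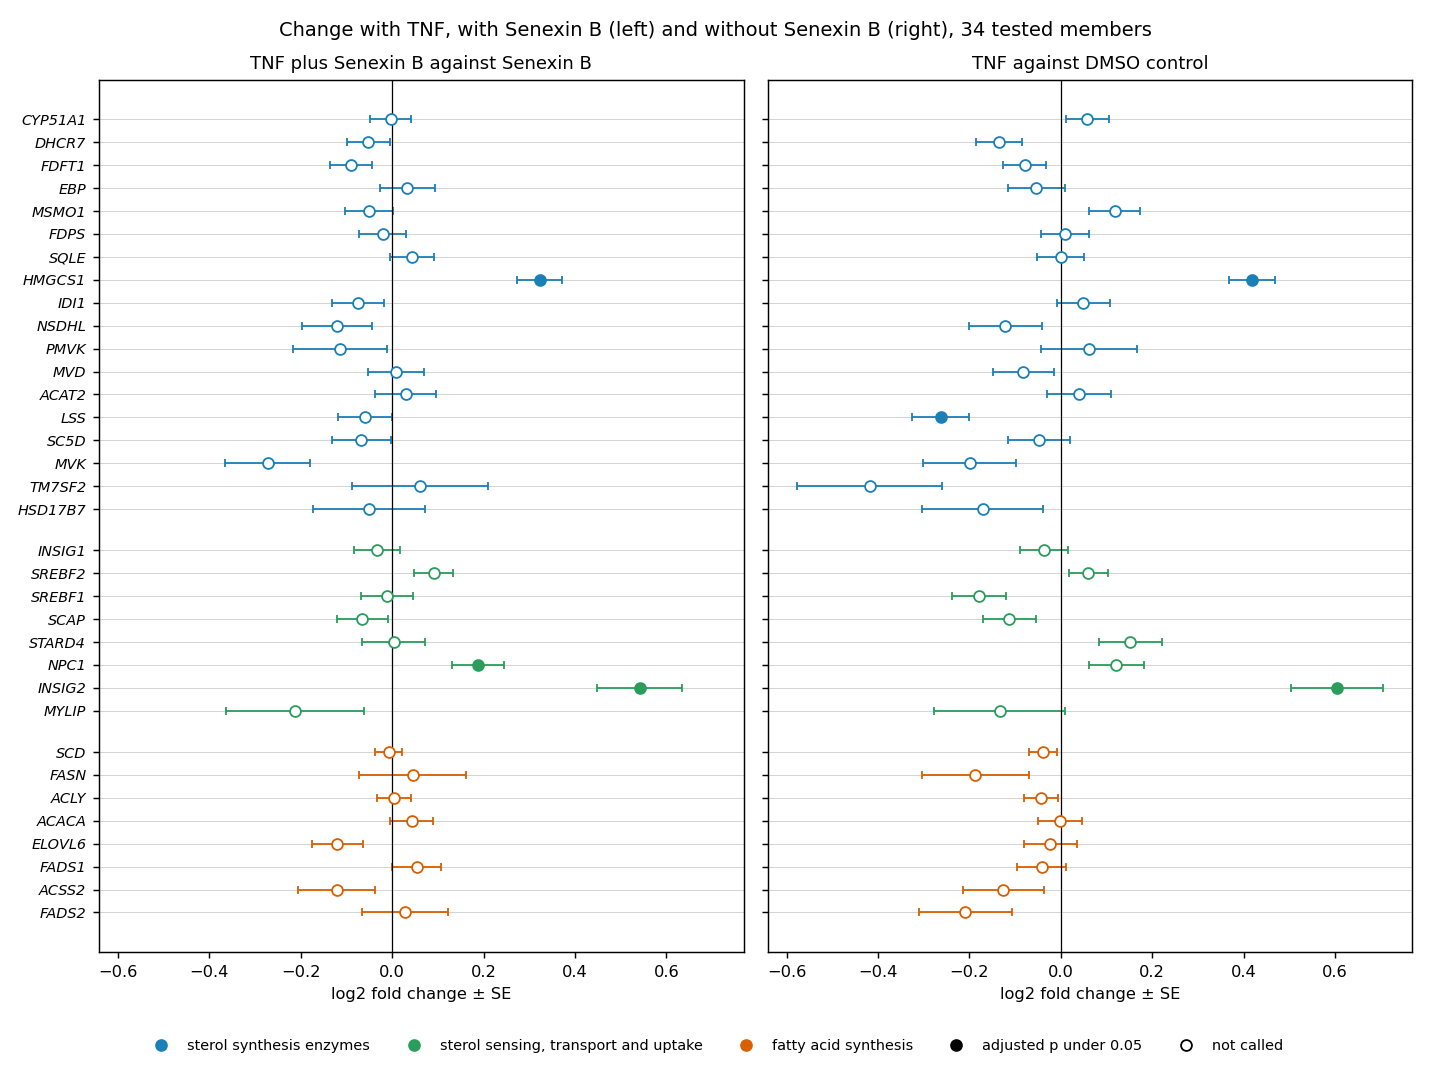
Log2 fold change ± SE for the 34 tested genes with TNF, with Senexin B (left panel) and without Senexin B (right panel), coloured by role, with filled points at an adjusted p under 0.05. HMGCS1 and INSIG2 are filled on both sides, NPC1 on the left and LSS on the right.

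The interaction asks whether the Senexin B effect differed with and without TNF. None of the 34 genes was called, by edgeR's quasi-likelihood test or by DESeq2, and 0.0459% of all genes were. At an unadjusted p under 0.05, edgeR gave 2 higher, LSS at 0.20 (95% interval 0.03 to 0.38) and TM7SF2, a sterol reductase, at 0.48 (0.04 to 0.92), and 1 lower, MSMO1 at -0.17 (-0.32 to -0.01). Their adjusted p-values were 0.754, 0.783 and 0.793. The transcript GC content of LSS, TM7SF2 and MSMO1 was 58.3%, 64.2% and 38.1%, and the interaction had a rho of 0.64 with GC content over the 34. A part of GC content in these 3 values was not tested. For the other genes called with the inhibitor the intervals spanned 0. They ran from -0.10 to 0.18 for SQLE, from -0.06 to 0.22 for DHCR7, from -0.09 to 0.27 for MVD, from -0.35 to 0.20 for MVK and from -0.05 to 0.12 for SCD. For SREBF1, called with Senexin B in TNF-treated cells and not against DMSO control, the interaction was 0.17 with an interval from -0.0013 to 0.33 (unadjusted p = 0.0516 and adjusted p = 0.805 in edgeR's fit over all genes). The intervals ran from -0.10 to 0.23 for NPC1, from -0.49 to 0.34 for MYLIP and from -0.06 to 0.25 for FADS1. For the genes that rose with TNF they ran from -0.24 to 0.05 for HMGCS1 and from -0.34 to 0.21 for INSIG2.

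Neighbouring routes were read in the same comparisons. Of 10 tested genes of the isoprenoid side branches, which use farnesyl diphosphate for other products, none was called in any comparison by edgeR or DESeq2, and at an unadjusted p under 0.05 edgeR gave at most 3 higher and 1 lower. Of 20 other genes of sterol handling, TMEM97, a sterol-regulated membrane protein, was the one called. It was at 0.20 ± 0.05 with Senexin B against DMSO control (adjusted p = 0.0127) and at 0.16 ± 0.04 in the mean effect (0.00191). That is 5% of the 20 called higher, against 1.53% of all genes in the first comparison and 5.18% in the mean effect.

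Of 23 other genes of fatty acid and glycerolipid synthesis, 0 were called with Senexin B against DMSO control by edgeR or DESeq2, and 2 were higher at an unadjusted p under 0.05. In TNF-treated cells 1 rose and 1 fell, where 2.90% of all genes rose and 2.55% fell. These were MCAT, a transferase of mitochondrial fatty acid synthesis, at 0.29 ± 0.08 (adjusted p = 0.0134), and ACSL3, an acyl-CoA synthetase, at -0.17 ± 0.05 (0.0144). In the mean Senexin B effect 3 of the 23 rose (13%) and 1 fell (4.35%), against 5.18% and 4.89% of all genes. MCAT was at 0.23 ± 0.05 (0.00186), OXSM, a synthase of the same mitochondrial route, at 0.24 ± 0.07 (0.0245), the acyl-CoA synthetase ACSL5 at 0.11 ± 0.04 (0.0494) and ACSL3 at -0.13 ± 0.03 (0.00392). With TNF alone 3 of the 23 rose (13%) and 2 fell (8.70%), against 5.81% and 4.20% of all genes. The malic enzyme gene ME1 was at 0.20 ± 0.05 (0.00546), the elongase ELOVL5 at 0.21 ± 0.05 (0.00628), ACSL5 at 0.22 ± 0.06 (0.00682) and AGPAT2, an acyltransferase of phosphatidic acid synthesis, at -0.26 ± 0.08 (0.0159). In cells with the inhibitor TNF called 0 of the 23 by edgeR or DESeq2, and 2 were lower at an unadjusted p under 0.05.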

How the data were processed

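HCT116 RNA went through a TruSeq RNA kit that keeps no strand information, per the labels' protocols. Values in the deposited table are raw, whole-number read counts for each symbol in each library. The submitters' processing notes list STAR 2.4, SAMtools 1.2, featureCounts and Subread 1.4.6, with the build GRCh38. The annotation release, strand setting and treatment of multiply mapped reads are not given in the sources used here. Replicates are labelled biological, and whether they came from separate cultures is not stated, so p-values measure the spread between these libraries.

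All 12 libraries entered 1 fit in edgeR 4.0.16 (R 4.3.3), with a coefficient per group, TMM factors, the filterByExpr filter and robust dispersions for quasi-likelihood tests. Genes were called at a Benjamini-Hochberg adjusted p under 0.05 over 13084 tested genes. SEs are Wald errors scaled by the quasi-dispersion. CPM use TMM-scaled library sizes for display. The common biological coefficient of variation was 3.62%, and totals ran from 5835226 to 9281176 counts. The alternatives were RLE and upper-quartile factors, 2 other filters, DESeq2 1.42.0, fits of only the groups compared, a replicate block, GC-corrected offsets and libraries left out. GC content, exon lengths and overlaps came from GENCODE 29 (GRCh38), in which 36066 of the 56634 symbols matched. GC content was known for 12186 tested genes, all members included. Promoters came from RefSeq (GRCh38.p14). The pipeline was run on simulated counts drawn with the common dispersion for every gene. They held no GC trend and no library that stood apart, so that run does not cover those features of these data.

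The members, gene lists, marker lists and alternatives were chosen with earlier results of these data known. All members are named, and called genes of the neighbouring lists are named, at most 4 per list and comparison, by smallest adjusted p.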

Additional observations from a re-analysis of the deposited data

How the results depend on the processing

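The count of members called and the difference between branch medians (sterol enzymes less fatty acid genes) were recomputed under each alternative. With TNF against DMSO control, 5 members were called with upper-quartile factors and 5 without DMSO control replicate 1 and TNF replicate 1, against 3. Over all genes these settings gave 1303 and 937 calls, against 1309. For TNF plus Senexin B against TNF the branch difference was 0.00210 with GC-corrected offsets and a replicate block and 0.0178 without DMSO control replicate 1 and TNF replicate 1, against -0.0344. For the interaction it was -0.0250 without those libraries, against -0.0572. The cause was not tested. Leaving out 1 library at a time, members called ran from 3 to 6 for Senexin B against DMSO control, 5 to 7 for TNF plus Senexin B against TNF, 8 to 11 for the mean Senexin B effect, 3 to 6 for TNF against DMSO control, 2 to 4 for the combination against Senexin B alone and 0 to 0 for the interaction. In the same order the branch difference ran from -0.000962 to 0.0750, -0.0418 to 0.0178, -0.0370 to 0.00674, -0.0122 to 0.0345, -0.0677 to -0.00843 and -0.0982 to -0.0308. No called value changed sign under any alternative.

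Libraries with the same replicate number were at most weakly related: of 18 such pairs, 1 had a correlation of deviations over 0.1 (range -0.0123 to 0.103). Their median correlation was 0.0174, against -0.00985 for pairs with different numbers. With the replicate block, 6, 8, 11, 4, 3 and 0 members were called, in the order above. Over all genes the block gave 479, 871, 1530, 1470, 827 and 6 calls in that order, against 398, 713, 1318, 1309, 779 and 6. Over all genes DESeq2 called 461 for TNF plus Senexin B against TNF (713 in edgeR), 870 for the mean effect (1318) and 850 for TNF against DMSO control (1309). With GC-corrected offsets and a replicate block, Senexin B against DMSO control gave 713 calls, against 398. Without 1 Senexin B library it gave 236 to 261. The interaction gave 10 calls with no filter and 2 or 3 without some libraries, against 6. Depth limited ABCA1, with at most 10 counts in a library, and MYLIP and TM7SF2, below 11 CPM.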
